A study of Homo sapiens with 6 samples.

Results

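The 10 genes described here write, remove or bear on DNA methylation: the DNA methyltransferases DNMT1, DNMT3A and DNMT3B, their partner UHRF1, the TET enzymes TET1, TET2 and TET3, the isocitrate dehydrogenases IDH1 and IDH2, and ASXL1. They were taken by gene symbol from a table of 31999 genes, in which each of the 10 has 1 row. The RNA came from HEL, a human erythroleukemia cell line, carrying either a lentiviral hairpin against the immune receptor TMIGD2 (shTMIGD2, 3 libraries) or a control hairpin (shCtrl, 3 libraries). Both groups were thus transduced. The study's methods describe puromycin selection and several hairpins against TMIGD2, and the labels do not name the one used for these libraries. CPM is the read count of a gene scaled to a common library total. The values analysed are the log2 of the authors' mean CPM per gene over all 6 libraries. This mean joins both groups. It has no value per library, so it carries no SD and no depth, and the groups are not compared here. A gene that differs between the groups stands at a value between them, and TMIGD2 itself, at 16.9 CPM, cannot serve as a check of the knockdown.

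Methylation of cytosine in CpG dinucleotides is a heritable mark that is copied at each cell division. DNMT1 restores it on the newly made strand, guided by UHRF1, which binds DNA methylated on only the parental strand, while DNMT3A and DNMT3B set it at new sites. TET enzymes oxidise methylcytosine with 2-oxoglutarate as cosubstrate, which IDH1 makes in the cytosol and IDH2 in mitochondria. ASXL1 acts on chromatin rather than on DNA, as the partner of the histone H2A deubiquitinase BAP1. DNMT3A, TET2, IDH1, IDH2 and ASXL1 are among the genes recurrently mutated in acute myeloid leukemia, but a table of levels does not show whether HEL cells carry mutations in them.

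The DNMT and TET enzymes act mainly on CpG, and the 10 genes start in sequence that differs in its CpG content. The 250 bases before the start of the MANE Select transcript (1 reference transcript per gene) are printed for TET1 and TET3, the genes with the fewest and the most CpG in this stretch. They were read 5′ to 3′ from GRCh38, and capitals mark each CpG.
TET1, chr10:68560087-68560336, plus strand: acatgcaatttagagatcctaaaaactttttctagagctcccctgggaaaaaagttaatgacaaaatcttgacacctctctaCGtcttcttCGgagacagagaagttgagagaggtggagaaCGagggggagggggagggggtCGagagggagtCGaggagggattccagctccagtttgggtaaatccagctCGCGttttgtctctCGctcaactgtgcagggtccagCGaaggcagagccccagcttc
TET3, chr2:73984660-73984909, plus strand: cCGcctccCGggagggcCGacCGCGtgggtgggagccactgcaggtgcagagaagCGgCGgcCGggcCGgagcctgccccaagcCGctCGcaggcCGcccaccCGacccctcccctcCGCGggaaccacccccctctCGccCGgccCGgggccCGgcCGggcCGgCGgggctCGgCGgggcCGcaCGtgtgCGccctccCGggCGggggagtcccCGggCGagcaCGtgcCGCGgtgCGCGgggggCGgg
The stretch of TET1 holds 9 CpG and that of TET3 holds 37. In GENCODE 44 no gene model overlaps either stretch, and each ends directly before the gene it is named for.

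All 10 genes were above 1 CPM, against 43.8% of the 31999 genes in the table, and their median was 6.60 log2 CPM, against -0.97 over all genes. The comparison with all genes is not like for like, since the 10 code for proteins and 16341 of the 31999 matched a protein coding model. Among listed genes with a window at a MANE Select start, 11213 were at 1 CPM or more and 4960 under it. Together the 10 genes made up 0.17% of the summed CPM. Ranked by CPM, in which long genes gain reads, DNMT1 was number 136 of 31999 with 788.1 CPM, and TET1 number 10688 with 4.85 CPM. The other 8 lay between 22.7 CPM for TET2 and 223.7 CPM for ASXL1. Among the 14000 genes at 1 CPM or more, DNMT1 had a percentile of 99.0 and TET1 one of 23.7.

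**Figure D1:**
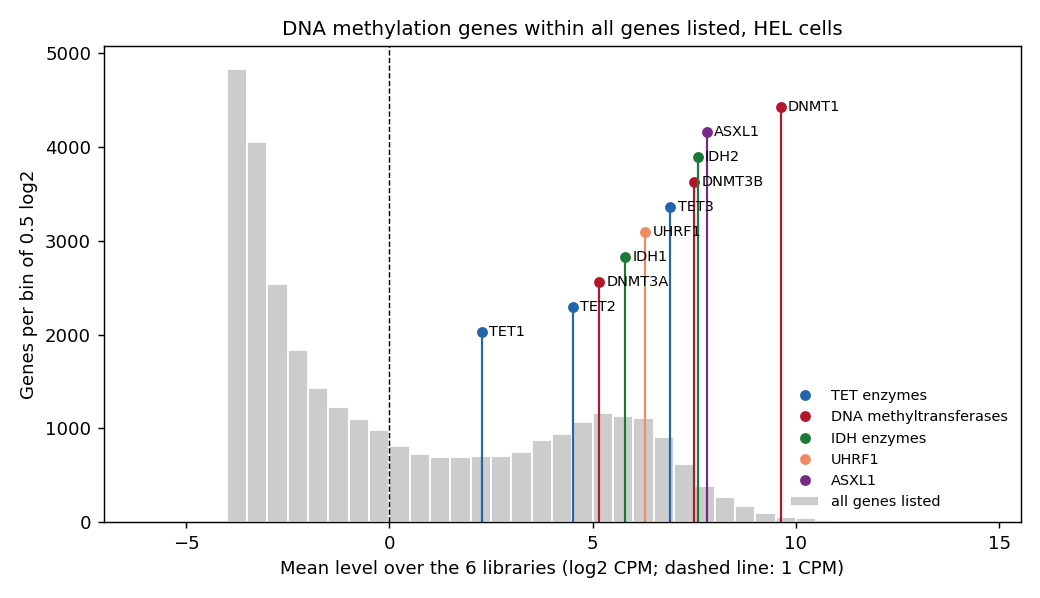
Mean level of the 10 genes (coloured lines, log2 CPM over the 6 libraries on the x axis) over the number of genes in each bin of 0.5 log2 (grey bars, y axis); line heights only separate the names. TET1 lies at 2.28, the other genes between 4.51 for TET2 and 9.62 for DNMT1, all to the right of the dashed line at 1 CPM.

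To compare genes with each other, the mean CPM was divided by gene length. The main length was that of all merged exons in GENCODE 44, and the alternatives were the transcript with the longest coding sequence, the MANE Select transcript and the coding length. The authors counted reads on a refSeq annotation, so the merged exons may include bases whose reads were not counted. IDH2 stood highest per kilobase of merged exons, at 68.7 CPM per kilobase, followed by DNMT1 at 51.3 and DNMT3B at 26.2. ASXL1 (16.4), UHRF1 (15.2), IDH1 (11.8) and TET3 (9.31 CPM per kilobase) came next, and DNMT3A (2.599), TET2 (1.38) and TET1 (0.504) were lowest. The median of genes at 1 CPM or more with a gene model was 5.41 CPM per kilobase. DNMT3A, TET2 and TET1 were below this median, and the other 7 above it. Among these genes IDH2 had a percentile of 95.6 per kilobase, DNMT1 93.7, DNMT3B 86.3 and ASXL1 77.6. UHRF1 had 76.1, IDH1 70.3 and TET3 64.3, and the low end was formed by DNMT3A with 32.8, TET2 with 20.9 and TET1 with 8.30. The last 4 places, TET3, DNMT3A, TET2 and TET1, stayed in this order under each of the 4 lengths. DNMT1 passed IDH2 under the other 3 lengths, and IDH1 passed UHRF1. With no spread between libraries, whether neighbours in this order differ beyond replicate error was not tested.

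**Figure D2:**
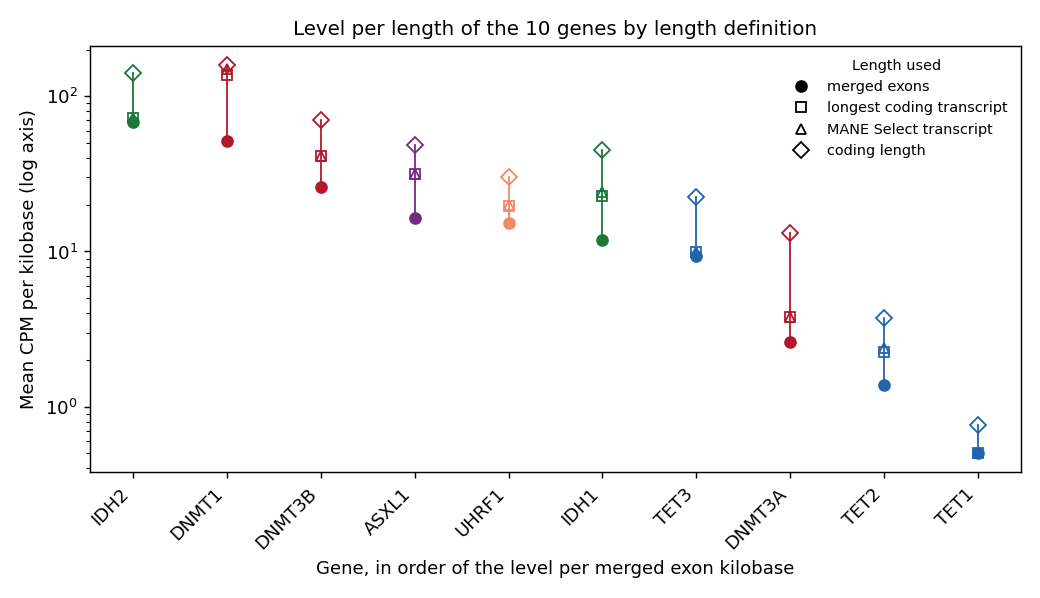
Mean CPM per kilobase (log axis) of each gene under 4 definitions of its length; filled circles use merged exons, open squares the longest coding transcript, triangles the MANE Select transcript and diamonds the coding length. Colours mark DNMT genes (red), UHRF1 (orange), TET genes (blue), IDH genes (green) and ASXL1 (purple). DNMT3A moves most in fold, from 2.599 with merged exons to 13.1 CPM per kilobase with the coding length, and TET1 is lowest under each length.

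Among the DNA methyltransferases, the maintenance enzyme had the highest level. DNMT1 (chromosome 19, 10133342 to 10231286, minus strand, as all positions from the GENCODE 44 models on GRCh38), with 41 exons in its MANE Select transcript, accounted for 64.1% of the summed level per merged exon kilobase of the 3 DNMT genes. DNMT3B (chromosome 20, 32762385 to 32809359, plus strand) made up 32.7% and DNMT3A (chromosome 2, 25227855 to 25342590, minus strand) 3.25%. DNMT1 was 19.7 times DNMT3A per merged exon kilobase, and between 12.1 and 39.3 times it under the other lengths. Against DNMT3B the ratio was 1.96, and 2.25 to 3.60 under the others. Between the de novo enzymes, DNMT3B exceeded DNMT3A by 10.1 times per merged exon kilobase, with 5.37 as the lowest ratio, from the coding length. DNMT3A is the gene whose merged exons exceed its coding sequence the most, 13781 against 2736 bases. The mean levels behind these ratios were 179.8 CPM for DNMT3B and 35.8 CPM for DNMT3A.

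UHRF1 (chromosome 19, 4903080 to 4962154, plus strand), the reader that brings DNMT1 to newly replicated DNA, had 78.2 CPM, which is 15.2 CPM per merged exon kilobase. DNMT1 was 3.37 times UHRF1 per merged exon kilobase. Under the single transcript and coding lengths the ratio lay between 5.21 and 7.45.

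The TET genes were ordered TET3, TET2, TET1. TET3 (chromosome 2, 73984910 to 74108176, plus strand) had 120.5 CPM and 83.2% of the summed level per merged exon kilobase of the 3 TET genes. TET2 (chromosome 4, 105145875 to 105279816, plus strand) had 22.7 CPM and 12.3% of that sum. TET1 (chromosome 10, 68560337 to 68694487, plus strand), which binds CpG-rich DNA through a CXXC domain, had 4.85 CPM and 4.50%. TET3 was 6.75 times TET2 and 18.5 times TET1 per merged exon kilobase. Over the 4 lengths the share of TET3 ranged from 77.7% to 83.2% and that of TET1 from 2.81% to 4.50%. The 3 methyltransferases summed to 80.0 CPM per merged exon kilobase and the 3 TET genes to 11.2, a ratio of 7.15. The ratio was 8.997 with the coding length, 14.4 with the transcript of the longest coding sequence and 15.1 with the MANE Select transcript, so its size depends on the length used.

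Of the isocitrate dehydrogenases, the mitochondrial IDH2 (chromosome 15, 90083045 to 90102477, minus strand) had 191.5 CPM, and the cytosolic IDH1 (chromosome 2, 208236229 to 208266074, minus strand) 55.6 CPM. Per merged exon kilobase IDH2 was 5.80 times IDH1 and made up 85.3% of their sum. Under the other lengths this fell to between 3.00 and 3.16, since the merged exons of IDH1 span 4699 bases and its MANE Select transcript 2318. ASXL1 (chromosome 20, 32358330 to 32439319, plus strand) had 223.7 CPM, which is 16.4 CPM per merged exon kilobase and 31.7 per kilobase of its MANE Select transcript.

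Reads that overlapping genes could share concern few bases. DNMT1 shares 83 exonic bases with S1PR2 on the same strand, 0.54% of its merged exons, and S1PR2 had 2.78 CPM. IDH1 shares 94 bases with IDH1-AS1 on the opposite strand, and IDH1-AS1 had 0.688 CPM. TET3 shares 390 bases, 3.01% of its exons, with an unnamed noncoding gene on the same strand. TET2-AS1 shares no exonic base with TET2 and was at 0.0736 CPM, the lowest value in the table. The library kit keeps the strand, but the setting used for counting is not given in the sources used here. Of processed pseudogenes named after the 10 genes, TET1P1 was at -3.48 log2 CPM, near the lowest value.

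At the windows around the MANE Select starts (250 bases before and 50 after), 9 of the 10 genes had a GC content of at least 50% and an observed over expected CpG ratio of at least 0.6, the usual marks of a CpG island. Of the windows of 11213 genes at 1 CPM or more, 84.9% had both, and of 4960 listed genes under 1 CPM, 45.6%. The share of the 10 genes is thus near that of expressed genes in general. TET1, the remaining gene, met the GC mark with 54.3% but not the other, with 10 CpG in 300 bases and a ratio of 0.463. DNMT3A had the most CpG, 46, and a ratio of 1.02. The gene with the lowest level per kilobase had the fewest CpG of the 10, but DNMT3A, also among the lowest 3, had the most. RefSeq lists several starts for most of these genes, 24 windows in all, of which 16 had both marks (66.7%, against 73.5% for genes at 1 CPM or more). For DNMT3B and IDH2 the RefSeq windows used here lie 17467 and 1847 bases downstream of the MANE Select start, with 3 and 6 CpG in place of 30 and 38. Which start HEL cells use cannot be read from levels per gene, and no methylation was measured.

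**Figure D3:**
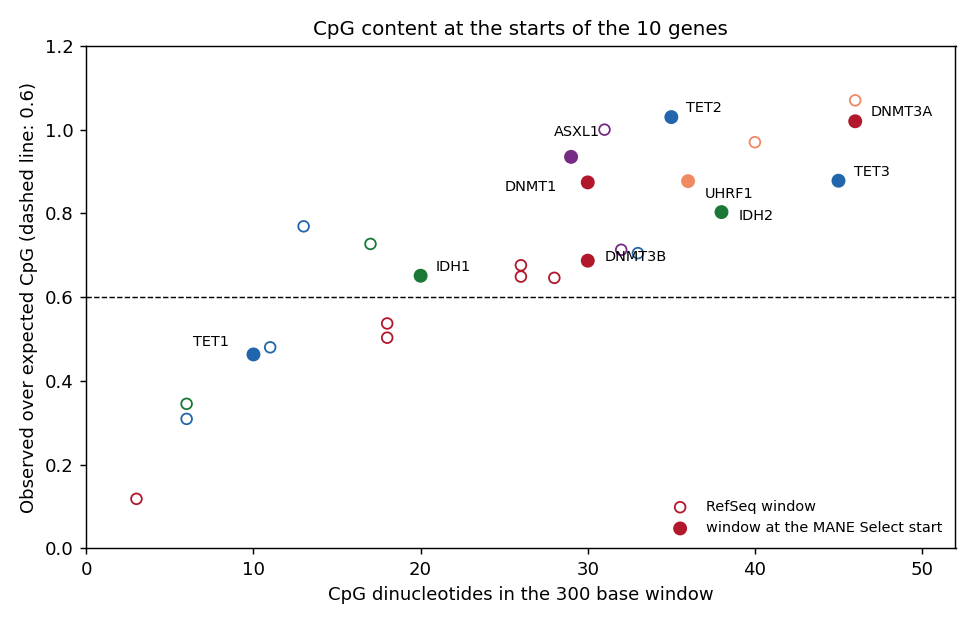
CpG dinucleotides per window of 300 bases (x axis) and observed over expected CpG ratio (y axis) at the starts of the 10 genes; filled points are MANE Select starts, open points RefSeq starts, coloured red for DNMT genes, orange for UHRF1, blue for TET genes, green for IDH genes and purple for ASXL1. TET1 is the only filled point under the dashed line at 0.6, with a ratio of 0.463.

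The 49 other genes of the pathway were grouped by role, and 48 of them had a value. Of these, 44 (91.7%) were at 1 CPM or more, against 43.8% of all genes listed. The share over all genes again includes those without a protein coding model. Of listed genes with a MANE Select window, 11213 reached 1 CPM and 4960 did not. Among partners in maintenance and de novo methylation, 6 of 7 were at 1 CPM or more, with TRIM28, a corepressor at silenced repeats, at the top of the list by CPM with 1327. ZFP57, which guards imprinted loci, had 0.0842 CPM, next to the lowest value of 0.0736 CPM listed, which contains an offset added by the authors' tool. No value is reported here for DNMT3L, the catalytically inactive cofactor of de novo methylation. All 7 readers of methylated DNA passed 1 CPM, from 14.0 CPM for ZBTB38 to 101.3 CPM for MBD1.

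Genes that complete removal of the mark had a median of 4.25 log2 CPM. Of 9 genes in oxidised cytosine removal and base excision repair, 8 were at 1 CPM or more, from 0.331 CPM for GADD45G to 174.1 CPM for the abasic site endonuclease APEX1. TDG, the glycosylase that excises the products of TET oxidation, had 101.6 CPM. The 6 genes of the S-adenosylmethionine cycle, which supplies methyl groups, were all above 1 CPM, with a median of 6.77 log2 CPM and at most 600.4 CPM, for AHCY, which clears the inhibitory product S-adenosylhomocysteine. The 8 enzymes that make or use 2-oxoglutarate or 2-hydroxyglutarate were also all above it, from 11.03 CPM for D2HGDH to 151.9 CPM for GLUD1. In the ASXL and BAP1 group 6 of 7 passed, with HCFC1 at 291.9 CPM and ASXL3 at 0.142 CPM. Of the 4 TET partners 3 passed, with CXXC5 at 140.1 CPM and CXXC4 at 0.0946 CPM.

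The cell type on the labels was checked with marker genes. All 9 erythroid and megakaryocyte markers were present, from EPOR at 45.8 CPM to ITGA2B at 1490.0 CPM. Of 6 markers of other cell types with a value, 2 were at 1 CPM or more, the endothelial and megakaryocyte gene PECAM1 at 151.6 CPM and the B cell gene CD79A at 5.01 CPM. The granulocyte gene MPO was at -3.32 log2 CPM and the epithelial gene EPCAM at -2.57. No value is reported here for the T cell genes CD3D and CD3E. CD79A had 3.72 CPM per merged exon kilobase against 0.504 for TET1. Whether other cells add to the levels of the 10 genes was not tested.

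**Figure D4:**
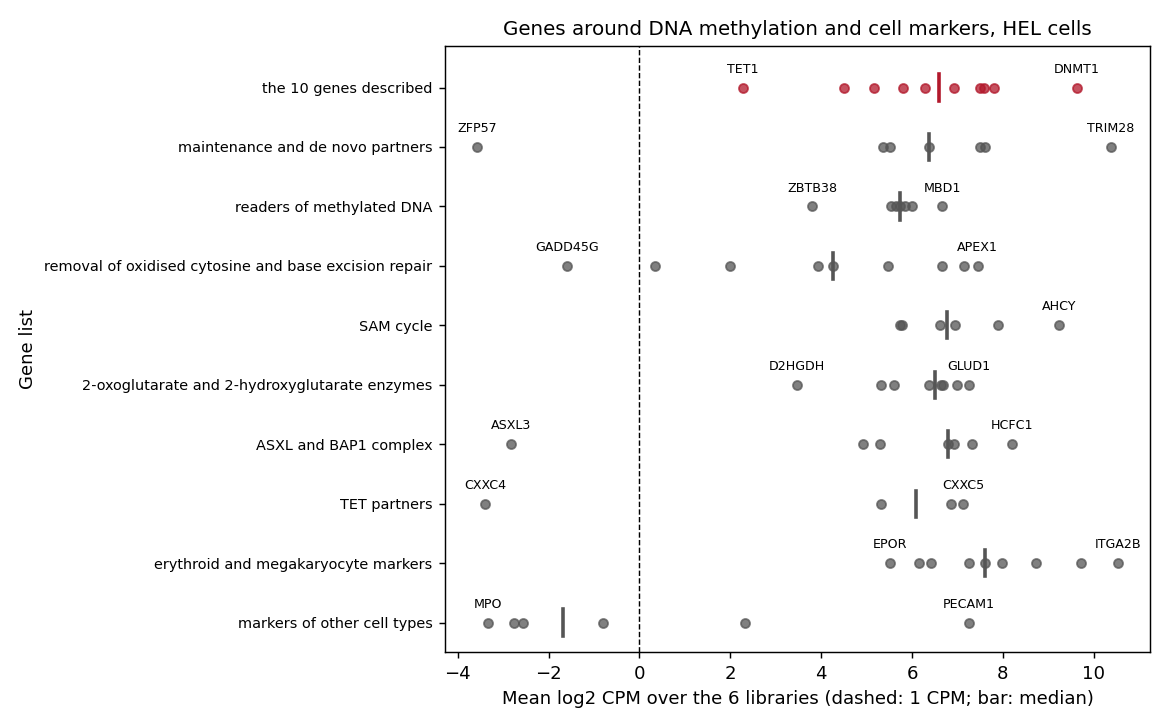
Mean level over the 6 libraries (log2 CPM, x axis) of the 10 genes described (red) and of the genes of each other list (grey, 1 row per list). Thick bars mark the median, and the highest gene of each list is named, as is the lowest except in the SAM cycle (SAM is S-adenosylmethionine). The 10 genes have a median of 6.60, and the markers of other cell types one of -1.69.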

How the data were processed

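HEL RNA from 3 shCtrl and 3 shTMIGD2 libraries was enriched for poly(A) and sequenced. Per the submitters' processing notes and the study's methods, the authors aligned reads to hg38 with STAR 2.6.1b and counted fragments per gene with HTSeq 0.6.1 on a refSeq annotation. The deposited table gives 1 mean CPM per gene by the authors, as log2 and over all 6 libraries, under the column names of edgeR. The study's methods instead name another tool for comparing the groups, run on genes with a mean read count of at least 1 in either group. Whether that filter was applied to this table, and the version and offset of edgeR, are not given in the sources used here. Its other 4 columns hold the authors' comparison of the groups (fold change, test statistic and p-values) and were not used, so no test was made. In CPM, the 31999 genes sum to 1002514. The depth is unknown, so no interval is given.

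Gene models were from GENCODE 44, matched by symbol for 22987 genes (71.8%, and 90.9% of those at 1 CPM or more). Since no protein table was given, coding length is the longest coding sequence of the annotation. RefSeq windows covered all 10 genes (GRCh38.p14). At 14472 MANE Select starts shared with them, the bases read from GRCh38 were the same in 14472. The percentile calculation was tested on simulated data, and the merged length and CpG calculations on small fixed examples. The other calculations had no such test. Python 3.11.15 and pandas 2.3.3 were used.

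The text names the 10 genes, TMIGD2, and of each list its highest and lowest gene. Some of these are not reported here. TDG, CD79A and EPCAM, the overlapping genes and those under the other observations were chosen after their values were seen. The members and lists were chosen with earlier results of these data known.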

Additional observations from a re-analysis of the deposited data

How the results depend on the processing

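The median level of the 10 genes per kilobase was 13.5 CPM with merged exons, 21.3 with the transcript of the longest coding sequence, 22.0 with the MANE Select transcript and 37.6 with the coding length, since each shorter length raises the value. The MANE Select length and the windows at MANE Select starts were chosen after seeing the data. Coding length moved all 10 genes by 1.5 times or more, with TET1 at that limit, and each of the single transcript lengths moved 5. The median percentile of the 10 genes was 92.3 among all genes listed, 85.5 among protein coding genes and 82.4 among genes at 1 CPM or more. The number of pathway genes counted as expressed was 44 at 1 CPM, 43 at 2 CPM and 44 at 0.5 CPM. The median CpG ratio was 0.709 over RefSeq windows, 0.71 without the bases after the start and 0.875 at MANE Select starts. No paired analysis was possible because the values analysed are means over all 6 libraries. For the same reason no library could be left out, no other normalization could be tried, and no error can be given. Values near the lowest in the table, such as those of ZFP57 and CXXC4, are limited by the offset.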

Other observations

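Some close relatives within the pathway lists stood far apart in level per merged exon kilobase, the only length taken for those lists. ASXL3 had 0.0104 CPM per merged exon kilobase, against 8.30 for ASXL2 and 16.4 for their paralogue ASXL1. ASXL1 and ASXL2 were nearer to each other than to ASXL3. ASXL1 itself went from 16.4 with merged exons to 48.4 with the coding length. How ASXL1 and ASXL2 compare under the other lengths was not tested. Of the stress-induced GADD45 genes, GADD45A had 73.3 CPM per merged exon kilobase, GADD45B 0.594 and GADD45G 0.2503. These genes were picked after their values were seen, and whether their levels differ between shCtrl and shTMIGD2 was not tested.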
